A study of Mus musculus with 6 samples.

Results

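The matrix metalloproteases (MMPs), the ADAMTS proteases with their ADAMTS-like relatives, and the tissue inhibitors of metalloproteases (TIMPs) were examined in coronary ECs from embryonic mouse hearts with and without endothelial *Wt1*. Members were all protein-coding genes whose symbol is Mmp, Adamts, Adamtsl or Timp followed by a number, whatever their count. This gave 51 of the 55416 genes in the table, made up of 23 MMPs, 19 ADAMTS genes, 5 ADAMTS-like genes and 4 TIMPs.

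The study asked what deletion of *Wt1*, which encodes a zinc finger transcription factor, does to ECs while the coronary plexus forms. RNA-Seq was done on 3 *ControlΔEC* and 3 *Wt1KOΔEC* libraries of mGFP+ cells, sorted by FACS from E15.5 heart ventricles that had been dissociated with type 1 collagenase. Both groups carried Pdgfb-CreERT2/+, a tamoxifen-inducible Cre driven from *Pdgfb*, and R26-mTmG/+, a reporter that switches to membrane GFP where Cre acts. *Wt1* was Wt1-LoxP/LoxP in *Wt1KOΔEC* and Wt1-+/+ in *ControlΔEC*, and every dam received tamoxifen at 75 mg/kg by gavage between E11.5 and E13.5. The mGFP signal reports recombination at the reporter, not at *Wt1*. The labels call the libraries biological replicates and do not give the embryos in each, so p-values measure the spread between these libraries.

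The libraries held 26037324 to 44779020 expected counts, and 3 counts, taken as the floor of detection, corresponded to 0.0608 to 0.119 CPM. CPM are TMM-normalised counts on a common library size, and this floor covers counting error only, because the amplified reads carry no molecular identifiers. Intervals of fold changes come from edgeR's fit and cover the spread between libraries. *Wt1* was at 145, 109.5 and 149 CPM in *ControlΔEC* replicates 1, 2 and 3 and at 14.0, 18.4 and 21.3 CPM in the *Wt1KOΔEC* replicates (log2 fold change -2.91, with an edgeR adjusted p of 0.00319). The ribosomal RNA *Rn18s* took 13.2% to 15.3% of the counts in *ControlΔEC* and 21.1% to 26.5% in *Wt1KOΔEC*. Mitochondrially encoded genes took 5.21% to 6.61% and 1.68% to 4.57%, so both shares separated the genotypes. Endothelial markers were high throughout, with all 8 tested and a summed 4877 to 6096 CPM in *ControlΔEC* and 4973 to 5777 CPM in *Wt1KOΔEC*. The sums of endocardial, fibroblast, mural cell and epicardial markers did not overlap between genotypes. Endocardial markers (6 of 6 tested) summed to 275 to 364 CPM in *ControlΔEC* and 651 to 774 CPM in *Wt1KOΔEC*. Fibroblast markers (10 of 10) summed to 724 to 1064 CPM and 1456 to 1642 CPM. Single markers were uneven in fitted log2 fold change. Endocardial values ran from 0.04 for *Tmem100* and 0.25 for *Nfatc1* to 1.60 for *Gata4* and 2.31 for *Plvap*. The paper saw no mGFP in the ventricular endocardium and reports *Gata4* as upregulated in mutant ECs. Of the fibroblast markers 8 were fitted above 0, and *Postn* (-0.16) and *Dpt* (-1.60) below. Mural cell markers (8 of 9 tested) summed to 468 to 637 CPM and 326 to 382 CPM, and epicardial markers (7 of 7) to 12.2 to 17.9 CPM and 18.2 to 56.4 CPM. The sums overlapped for macrophage markers (9 of 9 tested, 291 to 861 CPM and 236 to 335 CPM), cardiomyocyte markers (7 of 8, 106 to 146 CPM and 85.8 to 191.5 CPM) and erythroid markers (7 of 7, 6567 to 14340 CPM and 5104 to 8490 CPM). The part of these cells and shares in any result below was not tested, and in such bulk libraries fewer cells of a type and less RNA per cell cannot be told apart.

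MMPs and ADAMTS proteases are zinc-dependent enzymes that cut proteins of the extracellular matrix and basement membrane, and the TIMPs bind and block their active sites. Growing capillaries use them to loosen the basement membrane at the sprouting tip, to trim the provisional matrix around the new vessel, and to release growth factors held there. In the embryonic heart, ADAMTS proteases clear versican from the cardiac jelly while the trabeculae and the coronary vessels form. ADAMTS-like proteins share the accessory domains of ADAMTS proteases without the catalytic part.

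The highest levels in sorted coronary ECs of both genotypes belonged to the same 5 genes, the proteoglycan-cleaving *Adamts1*, the inhibitor *Timp3*, the gelatinase *Mmp2* and the membrane-type *Mmp14* and *Mmp15*. A count in at least 1 library was found for 43 members, and 27 of 51 (52.9%) were over 3 counts in all 6 libraries, against 52.9% of 21885 protein-coding genes. A further 16 members (31.4%) were over 3 counts in 1 to 5 libraries, against 18.5% of protein-coding genes. The 8 members with no count anywhere were *Mmp1a*, *Mmp1b*, *Mmp7*, *Mmp10*, *Mmp20*, *Mmp27*, *Adamts13* and *Adamts20* (15.7%, against 25.7% of protein-coding genes). By counting error alone, a count of 0 allows a level of up to 0.119 CPM in the shallowest library. By mean over 6 libraries, 5 members were at 100 CPM or more, 8 between 10 and 100 CPM, and 30 below 10 CPM but above 0.

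**Figure D1:**
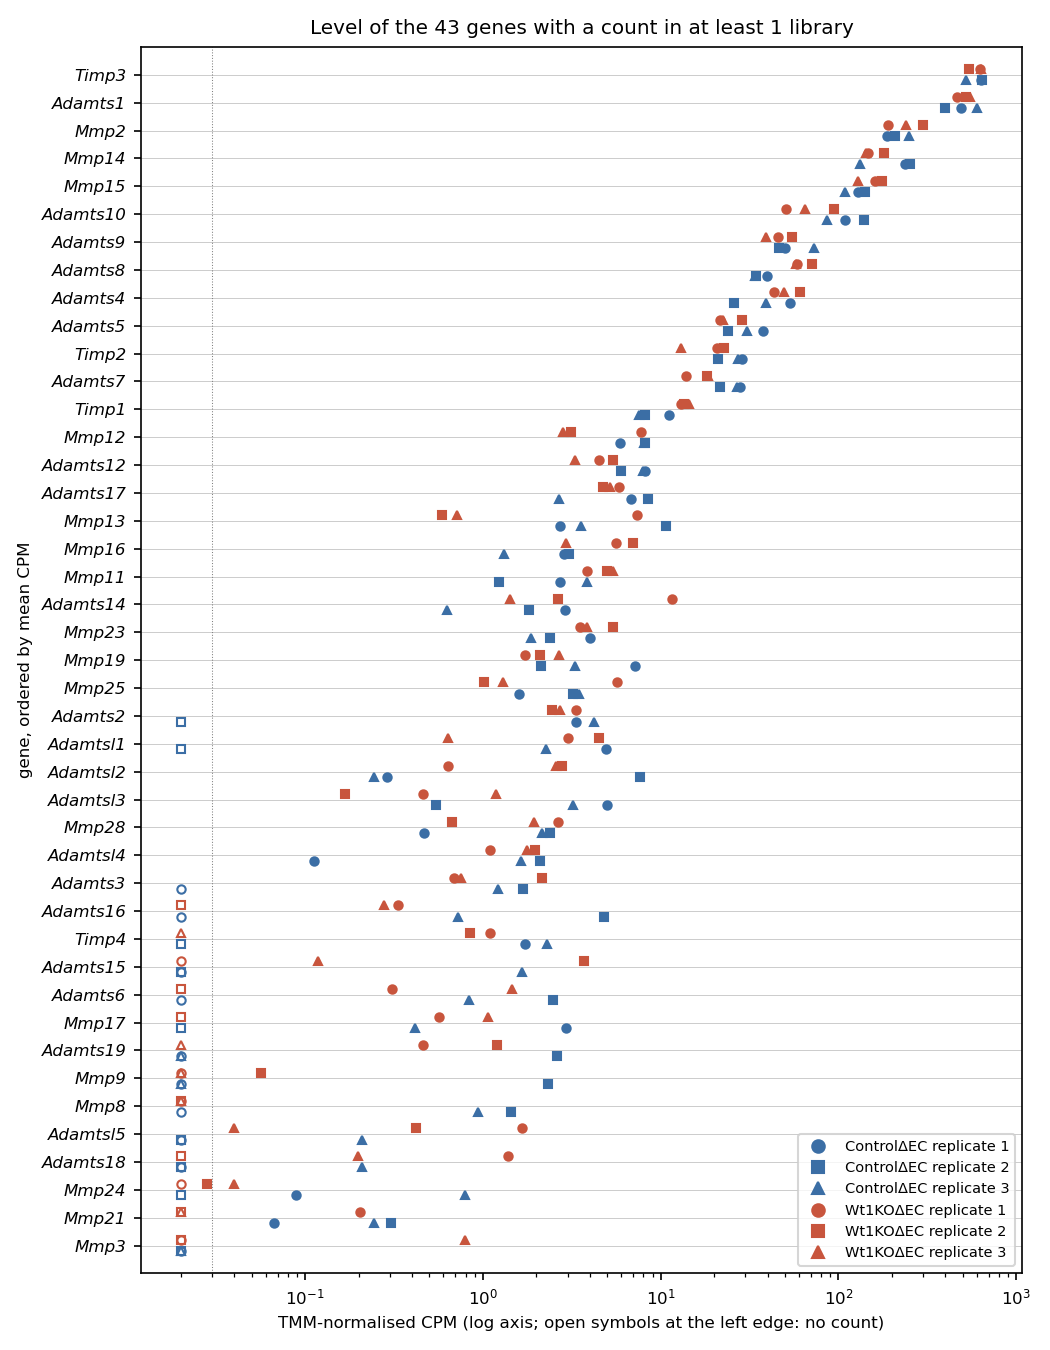
TMM-normalised CPM (log axis) of the 43 members with a count in at least 1 library, ordered by mean, with 1 symbol per library, blue for *ControlΔEC* and red for *Wt1KOΔEC*, and open symbols at the left edge for libraries with no count. The 5 highest members lie above 100 CPM on average with libraries of both genotypes interleaved, and the scatter between libraries widens below about 10 CPM.

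Per kb of exonic length, which allows genes to be compared, *Adamts1* stood highest at a level of 92.2 CPM per kb over the 6 libraries, followed by *Timp3* at 73.6 and *Mmp2* at 64.9. *Mmp14* followed at 29.5 CPM per kb, *Mmp15* at 26.1 and *Adamts8* at 10.4. These levels fall in steps: among the 12 highest members, neighbours in the order overlapped over the libraries except *Mmp2* (53.4 to 84.6 CPM per kb) and *Mmp14* (21.5 to 41.1), and *Mmp15* (20.2 to 32.6) and *Adamts8* (7.22 to 15.1). The order below *Adamts8* was *Adamts4* (7.03), *Adamts10* (6.91), *Timp1* (5.76), *Timp2* (4.99), *Adamts9* (3.42) and *Adamts7* (3.34 CPM per kb). The 5 highest members gave 82.8% to 85.3% of the summed CPM per kb of all members in every library.

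The summed level of all 51 members was 342, 331 and 337 CPM per kb in *ControlΔEC* replicates 1, 2 and 3, and 323, 370.1 and 345 CPM per kb in the *Wt1KOΔEC* replicates. The genotypes overlapped in this sum. MMPs made up 35.2% to 41.0% of it in *ControlΔEC* and 35.0% to 41.0% in *Wt1KOΔEC*, and ADAMTS genes 32.0% to 42.5% and 36.6% to 39.1%. TIMPs made up 21.9% to 26.6% and 21.2% to 27.2%, and ADAMTS-like genes at most 0.400% in any library.

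**Figure D2:**
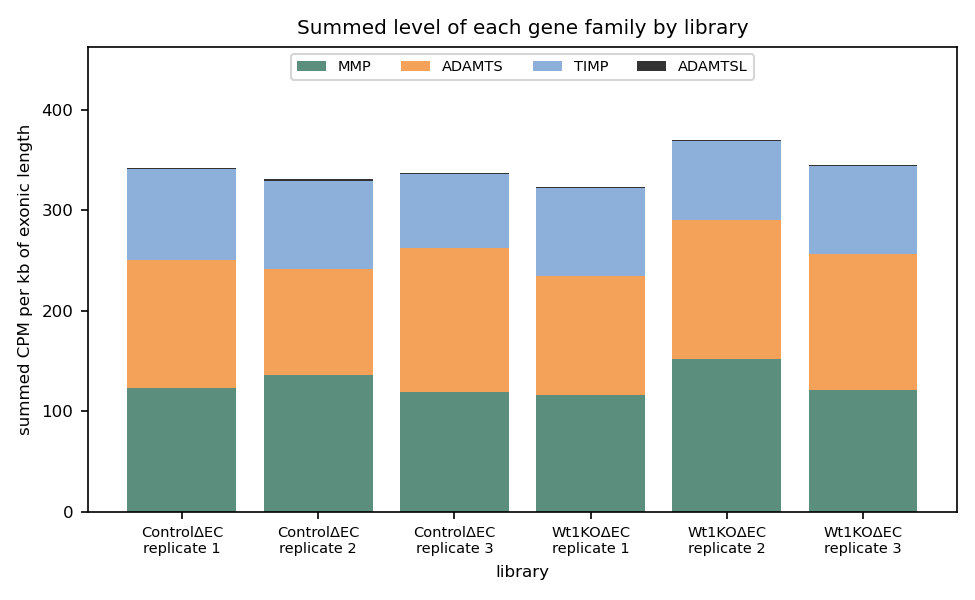
Summed level of each gene family in every library, in CPM per kb of exonic length, stacked by family. MMPs, ADAMTS genes and TIMPs each contribute at least 21.2% in every library, the ADAMTS-like share is at most 0.400%, and the totals of the genotypes overlap.

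The promoters of members differed in base composition, so the 250 bases before the annotated start of a few of them are shown here. The first 4 lines are members over the floor in all 6 libraries, 3 with the highest levels per kb and *Adamts8*, and the last 3 are from the MMP cluster on chromosome 9. *Mmp1b* and *Mmp7* had no count, and *Mmp13* was detected in all 6 libraries. Sequences were read from the GRCm39 genome on the gene's own strand, 5′ to 3′, and capitals mark CG dinucleotides and the letters TGAGTCA or their reverse complement TGACTCA, the binding motif of AP-1 type factors.
*Adamts1* (chr16:85600010-85600259, minus strand): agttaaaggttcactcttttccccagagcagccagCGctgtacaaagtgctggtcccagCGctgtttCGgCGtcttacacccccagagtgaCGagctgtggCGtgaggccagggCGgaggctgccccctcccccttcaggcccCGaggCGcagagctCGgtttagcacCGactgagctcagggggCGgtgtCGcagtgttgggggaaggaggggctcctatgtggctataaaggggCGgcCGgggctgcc
*Timp3* (chr10:86135986-86136235, plus strand): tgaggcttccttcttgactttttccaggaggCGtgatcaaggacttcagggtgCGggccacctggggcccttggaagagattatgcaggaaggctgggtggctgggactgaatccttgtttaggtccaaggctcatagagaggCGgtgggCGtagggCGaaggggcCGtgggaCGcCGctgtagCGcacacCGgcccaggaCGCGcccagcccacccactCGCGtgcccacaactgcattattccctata
*Mmp2* (chr8:93553652-93553901, plus strand): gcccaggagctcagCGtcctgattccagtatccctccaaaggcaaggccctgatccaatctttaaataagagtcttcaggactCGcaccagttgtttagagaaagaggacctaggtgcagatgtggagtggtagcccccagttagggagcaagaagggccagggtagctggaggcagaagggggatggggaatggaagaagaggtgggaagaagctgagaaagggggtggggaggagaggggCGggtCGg
*Adamts8* (chr9:30853559-30853808, plus strand): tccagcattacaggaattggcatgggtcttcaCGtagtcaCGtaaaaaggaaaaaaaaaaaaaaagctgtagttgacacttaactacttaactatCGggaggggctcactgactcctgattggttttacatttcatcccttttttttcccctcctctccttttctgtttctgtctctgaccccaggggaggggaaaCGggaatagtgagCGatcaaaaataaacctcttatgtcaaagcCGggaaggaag
*Mmp1b* (chr9:7388048-7388297, minus strand): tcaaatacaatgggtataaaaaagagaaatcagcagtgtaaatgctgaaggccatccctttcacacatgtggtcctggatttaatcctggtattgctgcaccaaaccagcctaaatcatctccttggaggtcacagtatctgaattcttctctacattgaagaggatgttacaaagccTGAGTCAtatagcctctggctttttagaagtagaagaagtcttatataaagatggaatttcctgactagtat
*Mmp7* (chr9:7691841-7692090, plus strand): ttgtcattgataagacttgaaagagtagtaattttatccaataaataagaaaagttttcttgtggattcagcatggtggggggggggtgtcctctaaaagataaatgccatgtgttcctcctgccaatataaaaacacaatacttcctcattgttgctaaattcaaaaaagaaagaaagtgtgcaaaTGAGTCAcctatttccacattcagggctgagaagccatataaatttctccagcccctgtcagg
*Mmp13* (chr9:7272264-7272513, plus strand): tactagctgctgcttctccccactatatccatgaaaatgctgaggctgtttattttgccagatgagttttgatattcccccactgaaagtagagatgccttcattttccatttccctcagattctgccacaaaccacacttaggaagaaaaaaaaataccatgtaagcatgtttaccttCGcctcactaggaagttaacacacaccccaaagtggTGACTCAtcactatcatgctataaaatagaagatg
The *Adamts1* promoter held 15 CG dinucleotides at 64.8% GC and the *Timp3* promoter 14 at 61.2% GC, while *Mmp2* held 4 at 56.8% GC and *Adamts8* 6 at 43.2% GC. *Mmp1b* and *Mmp7* held 0 CG dinucleotides at 38.8% and 38.0% GC, and *Mmp13*, which was detected, held 1 at 40.4% GC.

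Over all members, the number of CG dinucleotides in these 250 bases had a median of 0.5 (range 0 to 31) in the 8 members with no count, 8 (1 to 30) in the 16 over the floor in some libraries, and 11 (1 to 31) in the 27 over it in all 6. Of the 8 members with no count, 6 lie in the MMP cluster on chromosome 9, so their median mainly describes 1 locus. Outside the cluster *Adamts13* held 1 and *Adamts20* held 31. Inside it, *Mmp12* and *Mmp13*, detected in all 6 libraries, held 2 and 1. Promoters with an observed-to-expected CG ratio of at least 0.6 were 25.5% of members and 38.9% of 21770 protein-coding promoters. The letters GNGNGGGAG, a motif of the WT1 type read on both strands, were found in 9 of 51 member promoters (17.6%), against 15.1% of all protein-coding promoters. Those 9 were *Adamts2*, *Adamts4*, *Adamts6*, *Adamts7*, *Adamts15*, *Adamts20*, *Adamtsl2*, *Mmp8* and *Mmp28*, and the letters were in the promoter of neither *Adamts8* nor *Adamts10*. Such matches describe the letters in a window and are not sites of binding.

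The MMP genes of chromosome 9 form a cluster of 10 members within 427.1 kb (chr9:7272514-7699587), of which 6 had no count and 3 could be tested. Every one of the 10 promoters held at most 3 CG dinucleotides and at most 46.0% GC. TGAGTCA or TGACTCA, which was looked for after the sequences had been seen, was in 7 of the 10, at 35 to 73 bases before the start, and in 4.02% of all protein-coding promoters. Among all 51 members 11 (21.6%) held it, the other 4 being *Mmp9*, *Mmp19*, *Mmp28* and *Adamts3*. Of the 7 promoters in the cluster with the motif, *Mmp13* and *Mmp12* belonged to genes with counts in all 6 libraries, *Mmp3* to a gene with 20 counts in 1 library, and *Mmp1a*, *Mmp1b*, *Mmp7* and *Mmp10* to genes with none. The motif thus stood before detected and undetected genes.

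**Figure D3:**
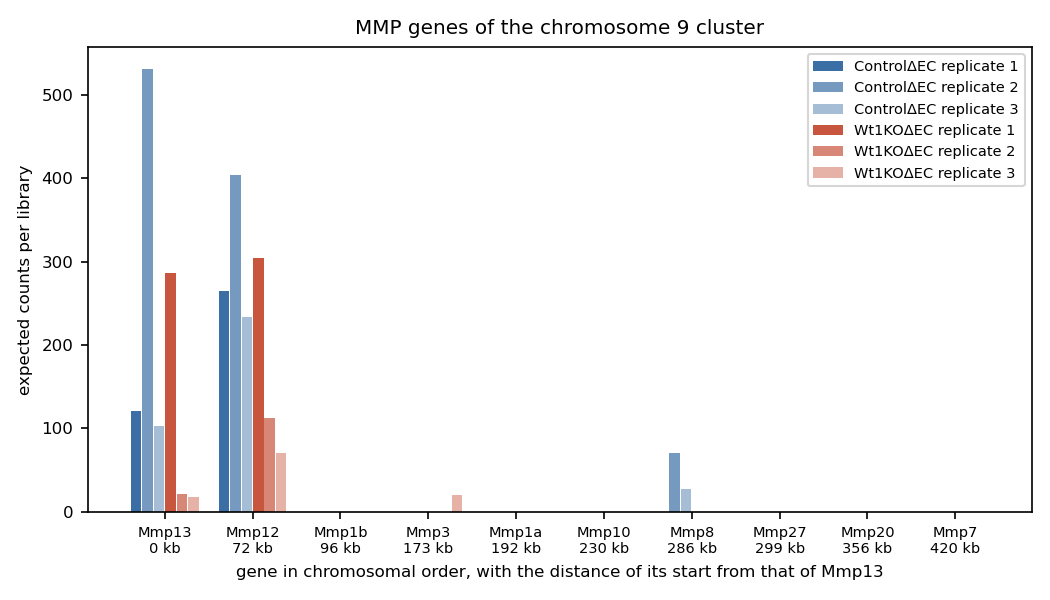
Expected counts per library for the 10 MMP genes of the chromosome 9 cluster, in chromosomal order, with the distance in kb of each start from that of *Mmp13* under the name and 1 bar per library. *Mmp13* and *Mmp12* carry nearly all counts, with *Mmp13* highest in *ControlΔEC* replicate 2 (531 counts) and *Wt1KOΔEC* replicate 1 (286 counts), while *Mmp8* is seen in 2 *ControlΔEC* libraries, *Mmp3* in 1 *Wt1KOΔEC* library and 6 genes in none.

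Few of these genes differed between the genotypes beyond the spread of the libraries. A gene was tested where 2 or more libraries each held 10 or more counts, which 38 members and 16296 genes in all did. DEGs were those that edgeR's quasi-likelihood test placed at a Benjamini-Hochberg adjusted p under 0.05 with a log2 fold change (*Wt1KOΔEC* over *ControlΔEC*) beyond 0.58 either way. Of the 38 members 0 were DEGs, against 12 of all genes tested (0.0736%), and limma-voom called 0 members and 8 genes. At an unadjusted p under 0.05 there were 4 members (10.5%), against 13.1% of all genes tested. Of these, 1 was higher (*Adamts8*) and 3 were lower (*Adamts10*, *Adamts7* and *Mmp8*) in *Wt1KOΔEC*. *Mmp8* could be tested only through its counts in *ControlΔEC*, so its p and direction are description only. DESeq2, run on the same genes, called 1 member (2.63%), *Adamts8*, against 599 genes (3.68%). The genotypes did not overlap in CPM for 5 members (13.2%), *Adamts8*, *Timp1* and *Mmp11* higher and *Adamts7* and *Adamts12* lower in *Wt1KOΔEC*, against 19.3% of all genes tested. None of these shares was above that of all genes tested.

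The fitted log2 fold change was above 0 for 18 members and below 0 for 20, with a median of -0.12 against -0.03 over all genes tested, and the median absolute size was 0.61 against 0.40. With the counts scaled by library size only, the median of all genes moved by -0.15, and the members split into 15 above and 23 below 0. The 95% interval lay within ±0.58 for only 2 tested members, *Adamts1* and *Timp3*, and was wider than 2 log2 units for 24, so that for those a difference inside such an interval was not detectable with these libraries.

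**Figure D4:**
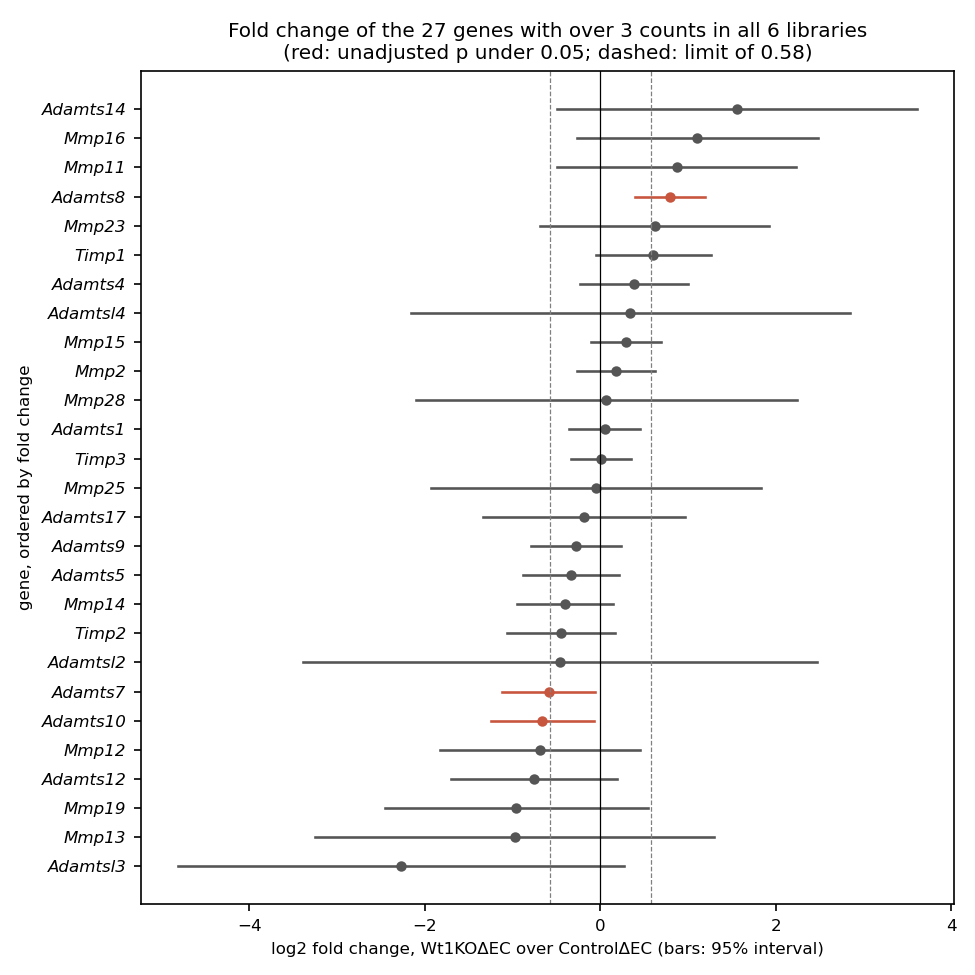
Fitted log2 fold change (*Wt1KOΔEC* over *ControlΔEC*) of the 27 members over 3 counts in all 6 libraries, with the 95% interval as a bar, ordered by size, red for an unadjusted p under 0.05 and dashed lines at 0.58 in either direction. *Adamts8* (0.80), *Adamts7* (-0.59) and *Adamts10* (-0.66) are the members whose bar does not reach 0, and *Adamts1* and *Timp3* have bars inside the dashed lines.

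ADAMTS proteases that cut proteoglycans such as versican and aggrecan were the role class with most tested genes, 6 of its 7 members. *Adamts8* (chr9:30853809-30875134) encodes a secreted protease whose thrombospondin repeats, like those of ADAMTS1, are known to restrain angiogenesis. It was at 39.7, 34.4 and 34.1 CPM in *ControlΔEC* replicates 1, 2 and 3 and at 58.4, 71.3 and 57.8 CPM in the *Wt1KOΔEC* replicates. Every *Wt1KOΔEC* library was above every *ControlΔEC* library, and the gap between the groups was wider than the spread within either. The log2 fold change was 0.80 (SE 0.18, 95% interval 0.39 to 1.20), with an unadjusted p of 0.00149 and an adjusted p of 0.155 in edgeR's quasi-likelihood test, so it did not pass the threshold there. DESeq2 gave an adjusted p of 0.00586 and limma-voom 0.162. The two-sided exact permutation test gave p = 0.1, the smallest that 3 libraries against 3 allow. With each library left out in turn the log2 fold change ran from 0.69 to 0.87. The reads carry no strand, and 27 members share exonic bases with another gene, 26 of them with antisense genes only, so reads of such pairs cannot be told apart. For *Adamts8* that gene is *Gm29724*, which overlaps 547 bases of its exons and was given at most 4 counts in any library. The neighbour *Adamts15*, 19.9 kb away on the opposite strand, was at a mean of 0.555 CPM in *ControlΔEC* and 1.28 CPM in *Wt1KOΔEC*, with counts in 3 of 6 libraries.

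*Adamts1* (chr16:85590579-85600009), which cleaves versican in the cardiac jelly, was at 492, 396 and 601 CPM in *ControlΔEC* replicates 1, 2 and 3 and at 463, 523 and 553 CPM in the *Wt1KOΔEC* replicates. The *ControlΔEC* libraries enclosed all 3 *Wt1KOΔEC* libraries. Its log2 fold change was 0.05 (SE 0.18, 95% interval -0.36 to 0.45), whose ends are a level 1.37 times higher and 1.28 times lower in *Wt1KOΔEC*. *Adamts5*, an aggrecanase that lies 53.1 kb from *Adamts1*, was at a mean of 30.6 ± 6.82 CPM in *ControlΔEC* and 24.3 ± 3.93 CPM in *Wt1KOΔEC* (SD, n = 3), with overlapping libraries. *Adamts4* (chr1:171077986-171089841), also an aggrecanase, was at 53.4, 25.7 and 39.1 CPM in *ControlΔEC* and 43.6, 60.6 and 49.7 CPM in *Wt1KOΔEC*. Its libraries overlapped, and its log2 fold change was 0.38 (SE 0.27, adjusted p = 0.631 from edgeR). *Adamts9*, which acts on versican together with ADAMTS1, was at 56.7 ± 14.6 CPM and 46.6 ± 7.79 CPM (SD, n = 3) with overlap. Over the 6 tested members of the class the fitted direction was split, 4 above and 2 below 0, and 3 of each with library size only.

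The class that cuts cartilage oligomeric matrix protein (COMP) held *Adamts7* and *Adamts12*, and both were lower in every *Wt1KOΔEC* library than in every *ControlΔEC* library. *Adamts7* (chr9:90045062-90090124), known from vascular smooth muscle and from coronary disease loci, was at 27.9, 21.7 and 26.7 CPM in *ControlΔEC* replicates 1, 2 and 3 and at 13.9, 18.2 and 18.6 CPM in the *Wt1KOΔEC* replicates. The highest *Wt1KOΔEC* library was 3.13 CPM below the lowest *ControlΔEC* library. The log2 fold change was -0.59 (SE 0.24, 95% interval -1.12 to -0.06, unadjusted p = 0.0334 and adjusted p = 0.335 from edgeR). *Adamts12* was at 6.02 to 8.20 CPM in *ControlΔEC* and 3.28 to 5.36 CPM in *Wt1KOΔEC* (log2 fold change -0.76, SE 0.42, adjusted p = 0.502 from edgeR). Neither passed the threshold. The summed mural cell markers were lower in the same 3 libraries, at 326 to 382 CPM against 468 to 637 CPM. Of the 8 tested, 7 had a fitted log2 fold change below 0 and 1 above. Among the smooth muscle genes on that list, *Acta2* was at -0.04 and *Tagln* at 0.92, and *Myh11* was not tested. *Rgs5* was at 165.3, 26.83 and 163.5 CPM in *ControlΔEC* replicates 1, 2 and 3 and at 25.43, 17.85 and 19.42 CPM in the *Wt1KOΔEC* replicates. *Pdgfrb* (-1.25) and *Cspg4* (-1.22 on the log2 scale) were also lower without overlap. DESeq2 called 3 mural cell markers lower, *Rgs5*, *Pdgfrb* and *Cspg4*, against 2.02% of all genes tested, and edgeR called 0. The paper counts *Rgs5* and *Kcnj8*, both on that list, among arterial genes. A loss of mural cell or smooth muscle RNA was not tested. *Adamts7* shares 122 exonic bases with the antisense gene *Tbc1d2b*, which was at 12.7, 33.3 and 13.6 CPM in *ControlΔEC* and 13.1, 10.7 and 4.91 CPM in *Wt1KOΔEC*, so a part of its count is uncertain.

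*Adamts6*, *Adamts10*, *Adamts17* and *Adamts19* act on or bind fibrillin microfibrils, and all 4 could be tested. *Adamts10* (chr17:33742987-33772758), mutated in a syndrome of short stature and lens dislocation, was at 109, 139 and 85.7 CPM in *ControlΔEC* replicates 1, 2 and 3 and at 51.03, 95.1 and 64.6 CPM in the *Wt1KOΔEC* replicates. *Wt1KOΔEC* replicate 2 reached into the *ControlΔEC* range, and the other two lay below it. The log2 fold change was -0.66 (SE 0.26, 95% interval -1.25 to -0.08), with an unadjusted p of 0.0310 and an adjusted p of 0.330 in edgeR's quasi-likelihood test. It ran from -0.94 without *Wt1KOΔEC* replicate 2 to -0.47 without *ControlΔEC* replicate 2. The fitted log2 fold change was below 0 for all 4 members of the class under each of the 4 scalings, with a median of -0.65, but *Adamts6* and *Adamts19* were at 0 in 2 and 3 of the 6 libraries and their intervals were 9.08 and 10.3 log2 units wide.

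The procollagen N-proteinases *Adamts2*, *Adamts3* and *Adamts14* trim the amino end of fibrillar procollagens, and *Adamts3* also activates VEGFC. *Adamts14*, the highest of them, ranged from 0.624 to 2.88 CPM in *ControlΔEC* and from 1.42 to 11.6 CPM in *Wt1KOΔEC*, where replicate 1 alone reached 11.6 CPM. All 3 had fitted log2 fold changes above 0 (0.18 to 1.55) with overlapping libraries and none passed the test. The summed fibroblast markers, of which 8 of 10 were fitted above 0, were higher in the same *Wt1KOΔEC* libraries. *Adamts16*, the higher of the unclassed pair with *Adamts18*, ran from 0 to 4.78 CPM in *ControlΔEC* and from 0 to 0.333 CPM in *Wt1KOΔEC*. *Adamts13*, which cuts von Willebrand factor, had no count, although its substrate gene *Vwf* was at 100 ± 7.63 CPM in *ControlΔEC* and 85.6 ± 57.9 CPM in *Wt1KOΔEC* (SD, n = 3). The 5 ADAMTS-like genes were all tested and all low, the highest per kb being *Adamtsl4* with 0.112 to 2.09 CPM in *ControlΔEC* and 1.10 to 1.97 CPM in *Wt1KOΔEC*. Their libraries overlapped in every case.

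Among the MMPs, 13 of 23 could be tested, 6 with a fitted log2 fold change above 0 and 7 below, with a median of -0.05. The gelatinase *Mmp2* (chr8:93553902-93580049) cuts denatured collagen and basement membrane collagen. It was at 189, 208 and 249 CPM in *ControlΔEC* replicates 1, 2 and 3 and at 190.1, 299 and 241 CPM in the *Wt1KOΔEC* replicates, with overlapping libraries (log2 fold change 0.18, SE 0.20, 95% interval -0.27 to 0.63). *Mmp14* (chr14:54668878-54682821) encodes the membrane-type MMP that activates proMMP2 on the cell surface and leads pericellular collagen cleavage by sprouting ECs. It was at 236.5, 253 and 132 CPM in *ControlΔEC* and at 147, 180 and 142 CPM in *Wt1KOΔEC*. *ControlΔEC* replicates 1 and 2 were above all others, and *ControlΔEC* replicate 3 was the lowest of the 6, which left a log2 fold change of -0.41 (SE 0.24, adjusted p = 0.542 from edgeR) that was -0.65 without that library and -0.24 without *ControlΔEC* replicate 2.

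*Mmp15* (chr8:96078895-96101708), a membrane-type MMP also abundant in ECs, was at 129, 142 and 109 CPM in *ControlΔEC* replicates 1, 2 and 3 and at 159.6, 176 and 129 CPM in the *Wt1KOΔEC* replicates. The libraries overlapped, and the log2 fold change was 0.29 (SE 0.18, 95% interval -0.11 to 0.69, adjusted p = 0.560 from edgeR). *Mmp16* ranged from 1.32 to 3.06 CPM in *ControlΔEC* and from 2.93 to 7.02 CPM in *Wt1KOΔEC*. *Mmp24*, the last of the transmembrane type, had 4, 0 and 23 counts in *ControlΔEC* and 0, 1 and 1 in *Wt1KOΔEC*, too few for a fold change. The GPI-anchored pair was led by *Mmp25*, at 1.59 to 3.47 CPM in *ControlΔEC* and 1.01 to 5.68 CPM in *Wt1KOΔEC*. The stromelysin *Mmp11* was at 2.73, 1.24 and 3.85 CPM in *ControlΔEC* and at 3.86, 5.00 and 5.38 CPM in *Wt1KOΔEC*. Its groups did not overlap, by a margin of 0.015 CPM, and its interval of -0.49 to 2.23 on the log2 scale held 0. It shares 155 exonic bases with the antisense gene *Chchd10*, which was at 0.797 to 3.44 CPM. *Mmp23*, the highest of the remaining MMPs, was at 1.87 to 4.02 CPM in *ControlΔEC* and 3.53 to 5.36 CPM in *Wt1KOΔEC*.

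MMPs known from myeloid cells were low and uneven between libraries. *Mmp12*, the macrophage elastase, was at 5.92, 8.19 and 8.08 CPM in *ControlΔEC* replicates 1, 2 and 3 and at 7.78, 3.14 and 2.81 CPM in the *Wt1KOΔEC* replicates. The collagenase *Mmp13* was at 2.703, 10.8 and 3.57 CPM in *ControlΔEC* and at 7.32, 0.590 and 0.712 CPM in *Wt1KOΔEC*. The gelatinase *Mmp9* had 115 counts in *ControlΔEC* replicate 2, 2 counts in *Wt1KOΔEC* replicate 2 and 0 in the other 4 libraries. For *Mmp12* and *Mmp13*, *Wt1KOΔEC* replicates 2 and 3 were the low libraries and *Wt1KOΔEC* replicate 1 lay within the *ControlΔEC* range. The summed macrophage markers were at 419, 861 and 291 CPM in *ControlΔEC* and at 335, 290 and 236 CPM in *Wt1KOΔEC*. *ControlΔEC* replicate 2, highest for *Mmp9*, *Mmp12* and *Mmp13*, was also highest in this sum and in the erythroid (14340 CPM) and neutrophil (2.94 CPM) sums. Within *Wt1KOΔEC*, replicate 1 was highest for *Mmp12*, *Mmp13* and the macrophage sum, and *Mmp12* fell in the order of that sum. Between other libraries the order differed in places. *Wt1KOΔEC* replicate 1 had *Mmp13* at 7.32 CPM with a macrophage sum of 335 CPM, against 2.703 and 419 CPM in *ControlΔEC* replicate 1. *ControlΔEC* replicate 3 had *Mmp12* at 8.08 CPM with a sum of 291 CPM. All 9 macrophage markers had a fitted log2 fold change below 0 in edgeR, 4 of them at an unadjusted p under 0.05, against 7.12% of all genes tested, and 0 as DEGs. DESeq2 called 2 of the 9, *Csf1r* and *Adgre1*, against 2.02% of all genes tested that it called lower. The part of macrophage RNA in the MMP values was not tested.

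**Figure D5:**
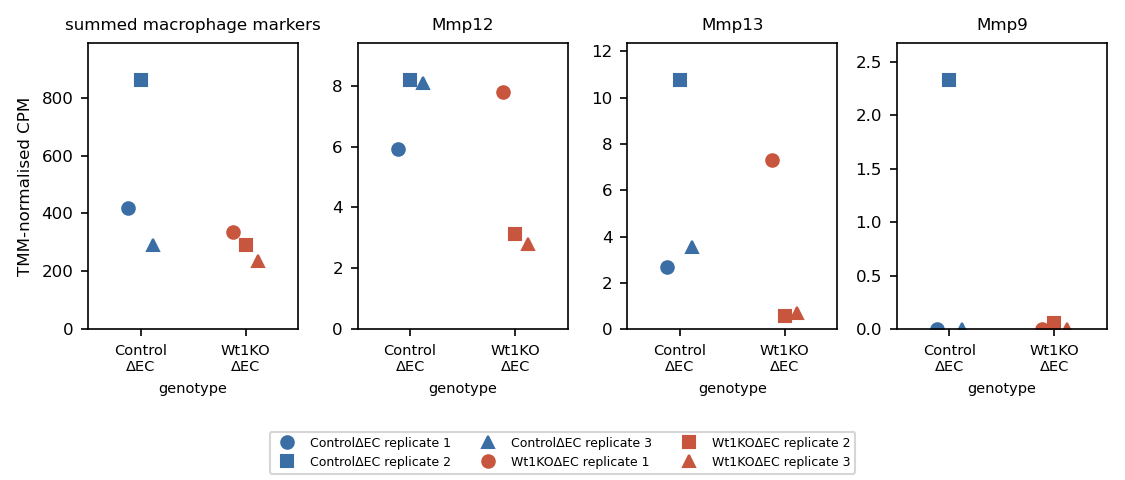
TMM-normalised CPM in each library of the 9 macrophage markers summed, and of *Mmp12*, *Mmp13* and *Mmp9*, for *ControlΔEC* (blue) and *Wt1KOΔEC* (red), each panel with its own axis from 0. *ControlΔEC* replicate 2 is the highest library in all 4 panels, at 861, 8.19, 10.8 and 2.33 CPM.

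*Mmp8* (chr9:7558457-7568487), the neutrophil collagenase, had 0, 71 and 27 counts in *ControlΔEC* replicates 1, 2 and 3 and 0 in all *Wt1KOΔEC* libraries. With 3 counts set for each *Wt1KOΔEC* library, its mean was 8.49-fold lower there. That value is not a lower bound, because the floor covers counting error only, and 1 *ControlΔEC* library also had none. The unadjusted p was 0.0262 and the adjusted p 0.313 in edgeR's quasi-likelihood test, with a fitted fold change that depends on the prior count. *Mmp8* could be tested only through its counts in *ControlΔEC*, so these p-values and the direction are description only. Neutrophil markers summed to at most 2.94 CPM in any library, in *ControlΔEC* replicate 2, with *Ly6g* at 0 in all 6.

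The 4 TIMPs were all tested, 2 with a fitted log2 fold change above 0 and 2 below (1 and 3 with library size only). *Timp3* (chr10:86136236-86185371) encodes the inhibitor that binds to the matrix, blocks ADAMTS as well as MMP enzymes, and competes with VEGF for its receptor. It was at 631, 644 and 519 CPM in *ControlΔEC* replicates 1, 2 and 3 and at 624, 542 and 637.5 CPM in the *Wt1KOΔEC* replicates. The ranges of the genotypes were nearly the same, and the log2 fold change was 0.01 (SE 0.15, 95% interval -0.33 to 0.35). The gene shares 1734 exonic bases with *Syn3* on the opposite strand, and *Syn3* was at 0.243 to 1.87 CPM.

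*Timp1* (chrX:20736316-20740976), an inhibitor of secreted MMPs with little action on the membrane types, was at 11.1, 8.13 and 7.59 CPM in *ControlΔEC* and at 12.99, 13.5 and 14.4 CPM in *Wt1KOΔEC*. Every *Wt1KOΔEC* library was above every *ControlΔEC* library, with a log2 fold change of 0.60 (SE 0.29, 95% interval -0.05 to 1.26, unadjusted p = 0.0662 and adjusted p = 0.422 from edgeR). It did not pass the test. The summed fibroblast markers, of which 8 of 10 were fitted above 0, were higher in the same libraries. The gene lies inside *Syn1*, which was at 0.832 CPM or less. *Timp2* (chr11:118191887-118246566), which joins MMP14 and proMMP2 in the complex that activates MMP2, was at 28.8, 21.1 and 27.3 CPM in *ControlΔEC* and at 20.8, 22.6 and 12.97 CPM in *Wt1KOΔEC*. The libraries overlapped (log2 fold change -0.45, SE 0.27, adjusted p = 0.550 from edgeR), and 332 of its exonic bases are shared with *Cep295nl* on the same strand, which makes its count uncertain. *Timp4*, the least abundant, had no count in 1 library of each genotype and reached 2.29 CPM. The 3 genes of the MMP2 activation complex, *Mmp2*, *Mmp14* and *Timp2*, were thus all detected in every library without a difference that passed the test.

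Other regulators of these enzymes were read from a list of 18 genes, chosen with earlier results of these data known, so its shares are description only. Of the 18, 17 were tested, 11 with a fitted log2 fold change above 0 and 6 below. At an unadjusted p under 0.05 there were 2 higher and 3 lower in *Wt1KOΔEC*, against 5.96% and 7.12% of all genes tested. In edgeR 0 were DEGs, and DESeq2 called 2, against 3.68% of all genes tested. *Bsg*, the highest per kb (76.9 CPM per kb) and known to induce MMPs, was at 191, 175 and 173.5 CPM in *ControlΔEC* and at 277, 249.7 and 216.5 CPM in *Wt1KOΔEC* (log2 fold change 0.46, SE 0.15, adjusted p = 0.264 from edgeR). *Plaur*, the urokinase receptor, was at 112.5, 77.3 and 88.3 CPM in *ControlΔEC* and 147, 129.5 and 154 CPM in *Wt1KOΔEC*, with an adjusted p of 0.220 from edgeR and 0.0332 from DESeq2. Papilin (*Papln*), an ADAMTS-like matrix protein that inhibits procollagen N-proteinase, was at 29.7, 13.8 and 16.5 CPM in *ControlΔEC* and at 3.197, 7.86 and 5.02 CPM in *Wt1KOΔEC*. Its log2 fold change was -1.90 (SE 0.43), with an adjusted p of 0.165 from edgeR and 0.00387 from DESeq2. For *Bsg*, *Plaur* and *Papln* the genotypes did not overlap. *B3glct*, which adds sugar to the thrombospondin repeats of ADAMTS proteins, was at 14.3 ± 0.786 CPM in *ControlΔEC* and 9.36 ± 1.01 CPM in *Wt1KOΔEC* (SD, n = 3; log2 fold change -0.62, adjusted p = 0.372 from edgeR). *Ccbe1*, the cofactor of ADAMTS3 for VEGFC, had 33, 0 and 34 counts in *ControlΔEC* and 0, 1 and 0 in *Wt1KOΔEC*. It is among the 3 lower genes and could be tested only through its counts in *ControlΔEC*.

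Substrates were read from a list of 20 genes, chosen with earlier results of these data known, so its shares are description only. Of the 20, 19 were tested and 14 had a fitted log2 fold change above 0, with a median of 0.33 against -0.03 over all genes tested. At an unadjusted p under 0.05, 6 were higher in *Wt1KOΔEC* and 0 lower, against 5.96% and 7.12% of all genes tested, and 1 was a DEG, against 0.0736%. *Col1a1*, the chain of fibrillar type I collagen, rose from 114 ± 12.5 CPM to 289.8 ± 40.0 CPM (SD, n = 3; log2 fold change 1.34, SE 0.17, adjusted p = 0.0441 from edgeR). Its partner chain *Col1a2* (0.87), *Col3a1* (0.97), decorin (*Dcn*, 0.97), the hyaluronan link protein *Hapln1* (0.64) and versican (*Vcan*, 0.41 on the log2 scale) did not pass the adjusted test in edgeR, with adjusted p of 0.108 to 0.366. DESeq2 called 5 of the 19, *Col1a1*, *Col1a2*, *Col3a1*, *Dcn* and *Hapln1*, against 3.68% of all genes tested. *Col1a1*, *Col1a2*, *Col3a1* and *Dcn* are also on the fibroblast list, so its higher sum in the same libraries contains them and is not independent of them. Among its other markers, *Pdgfra* (0.89), *Tcf21* (1.08), *Fbln1* (0.56) and *Lum* (0.04) had a fitted log2 fold change above 0. *Postn* (-0.16) and *Dpt* (-1.60) were below 0. The paper lists *Col1a1*, *Col3a1* and *Dcn* among venous markers. *Vcan*, the main cardiac substrate of ADAMTS1, was at 33.8, 36.2 and 36.8 CPM in *ControlΔEC* and at 41.8, 50.4 and 49.96 CPM in *Wt1KOΔEC*, with no overlap. The highest substrate, the basement membrane chain *Col4a1*, was at 363 CPM per kb, and its libraries overlapped between genotypes (log2 fold change 0.03, SE 0.21).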

How the data were processed

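RNA-Seq libraries of mGFP+ ECs (3 *ControlΔEC*, 3 *Wt1KOΔEC*) were made by the study with SMART-seq2 and Nextera XT, sequenced in pairs and without strand or molecular identifiers. The values deposited by the authors are RSEM's expected counts of each gene, given as whole numbers and not normalized. The study's methods name GRCm39 and GENCODE vM27; the submitters' processing notes list STAR 2.7.8a, RSEM 1.3.0 and DESeq2 1.18 but name GRCm38. RSEM shares out reads that fit several genes, so close paralogs can exchange counts.

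The labels gave genotype and replicate number. Of 55416 genes, the 16296 that reached 10 counts in 2 or more libraries were tested in R 4.3.3 with edgeR 4.0.16 (TMM normalization, quasi-likelihood F test, Benjamini-Hochberg adjustment). The SE was taken as the absolute log2 fold change divided by the root of its F. DEGs had an adjusted p under 0.05 and a log2 fold change beyond ±0.58. DESeq2 1.42.0 and limma 3.58.1 (voom), other scalings and filters, the replicate block and leaving out each library were alternatives, and another 2 were chosen once the data had been seen (DESeq2 on all genes with a count, and a fit without *Rn18s* and mitochondrial genes). Exonic lengths, positions and promoters come from GENCODE vM39 on GRCm39. The permutation tests used log2(CPM + 0.1). Steps were tested on simulated data. Overlapping genes are named for some members only, and 1 such overlap is not reported here.

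Values in every library are given for members at an unadjusted p under 0.05 and for the 10 highest per kb. The highest of each role class is given by its range, and listed regulators and substrates are named at an unadjusted p under 0.05 or as the highest of their list. *Adamts5*, *Adamts9*, *Adamts12*, *Adamts15*, *Mmp3*, *Mmp9*, *Mmp16*, *Mmp24*, *Timp4* and *Vwf* were named after their values were seen. The members, role classes and lists were chosen with earlier results of these data known.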

Additional observations from a re-analysis of the deposited data

How the results depend on the processing

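The count of members that were DEGs was 0 in edgeR under every scaling and filter, with each library left out, with the replicate block and in limma-voom, and 1 (*Adamts8*) with DESeq2 and with DESeq2 on all genes with a count, the latter chosen after the data had been seen. Members at an unadjusted p under 0.05 numbered 4, against 2 with the replicate block, 7 with DESeq2 on all genes and 2 to 5 with single libraries left out (2 without *Wt1KOΔEC* replicate 2). All genes called numbered 12, against 599 with DESeq2, 759 with DESeq2 on all genes, 296 with no filter, 113 with at least 10 counts in every library, 5 with the replicate block and 2 to 37 with single libraries left out (37 without *ControlΔEC* replicate 3, 2 without *Wt1KOΔEC* replicate 3). The cause of these shifts was not tested. Same-numbered libraries deviated from their group means with correlations of 0.0512, 0.0645 and 0.0445, each library correlating best with its own number. Libraries of different numbers had correlations of -0.0441 to -0.00934. The paper's cross was designed to give both genotypes within a litter. Neither the paper nor the labels say that a number marks a litter, so pairing was not assumed in the main fit and the replicate block was an alternative.

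Of 12 members followed through the alternatives, 10 kept the sign of their log2 fold change wherever they were fitted. For *Mmp8*, which is among these 10, the sign was fixed by 0 counts in all *Wt1KOΔEC* libraries, and it was fitted in 14 of 18 alternatives. Leaving out 1 library moved 5 of these 10 by over 1.5 times. *Mmp2* (0.18) was 0.09 and 0.30 without *ControlΔEC* replicates 1 and 3, and 0.33 and 0.0033 without *Wt1KOΔEC* replicates 1 and 2. *Adamts4* (0.38) was 0.67 and 0.15 without *ControlΔEC* replicates 1 and 2 and 0.24 without *Wt1KOΔEC* replicate 2. *Mmp15* (0.29) was 0.19 without *ControlΔEC* replicate 3 or *Wt1KOΔEC* replicate 2. *Mmp14* (-0.41) was -0.24 and -0.65 without *ControlΔEC* replicates 2 and 3, and *Timp2* (-0.45) was -0.25 without *Wt1KOΔEC* replicate 3. *Adamts1* (0.05) was -0.096 with library size only and -0.0885 to 0.212 with single libraries left out. *Timp3* (0.01) was -0.14 with library size only, -0.0078 with at least 10 counts in every library, -0.0006 over protein-coding genes only and -0.0832 to 0.0759 with single libraries left out. *Adamts8* ran from 0.65 to 0.87 over all settings, with adjusted p from 0.00136 to 0.426. Removing *Rn18s* and mitochondrial genes changed none of the 3 counts by over 1.5 times. Each genotype has its own run of library identifiers and the labels name no batch, so a batch and the genotype cannot be told apart.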

Other observations

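ADAM and astacin proteases, metalloproteases related to the ADAMTS family, were read from a list of 12 genes, of which 10 were tested. The list was chosen with earlier results of these data known, so its shares are description only. The membrane-bound sheddases dominated it. *Adam15*, a disintegrin protease of ECs, was the highest per kb (77.6 CPM per kb) and was at 674 ± 126 CPM in *ControlΔEC* and 558 ± 78.9 CPM in *Wt1KOΔEC* (SD, n = 3), with overlapping libraries. *Adam10*, which sheds Notch ligands and receptors, was at 234.5 ± 56.3 CPM and 248 ± 15.4 CPM. *Adam17*, which sheds TNF and EGF receptor ligands, was at 119, 111 and 107 CPM in *ControlΔEC* replicates 1, 2 and 3 and at 83.8, 92.1 and 76.6 CPM in the *Wt1KOΔEC* replicates. Its groups did not overlap, with a log2 fold change of -0.41 (SE 0.15, unadjusted p = 0.0212 and adjusted p = 0.293 from edgeR), which did not pass. *Tll2*, a tolloid-like astacin protease, had 32, 61 and 15 counts in *ControlΔEC* and 0 in every *Wt1KOΔEC* library. Its adjusted p was 0.220 from edgeR and 0.0394 from DESeq2. It could be tested only through its counts in *ControlΔEC*, so these p-values are description only. The fitted log2 fold change was above 0 for 3 of the 10 and below 0 for 7, with a median of -0.40 against -0.03 over all genes tested, and 0 were DEGs in edgeR, 2 were at an unadjusted p under 0.05, against 13.1% of all genes tested, and 1 (*Tll2*) was called by DESeq2, against 3.68%. *Mep1b* had no count in any library.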
